A study of Mus musculus with 12 samples.

Results

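The genes described here are the 6 that encode the DNA methyltransferases and their Uhrf partners, Dnmt1, Dnmt3a, Dnmt3b, Dnmt3l, Uhrf1 and Uhrf2. They were taken by symbol from the 20325 genes in the expression files. RNA was sequenced from mouse pre-iPSCs, cells of a partially reprogrammed line that are stalled before the induced pluripotent state. Such lines were made from mouse embryonic fibroblasts with a Nanog-GFP reporter and retroviral Oct4, Sox2, c-Myc and Klf4, and were picked as GFP-negative, ESC-like clones. All 4 conditions shared ESC medium with serum, and the cells, otherwise kept on irradiated feeders, were treated without the feeder layer for 48 h (day 2). The control received DMSO. The AA condition received ascorbic acid at 50 μg/ml, 2i received 1 μM of a MEK inhibitor and 3 μM of a GSK inhibitor, and AA+2i received both. Each condition had 3 replicate libraries with the letters A, B and C, 12 in all. The study calls them biological replicates, but the sources used here do not say whether the letters were separate cultures or lines, so the p-values measure the spread between these libraries.

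DNA methylation in mammals is written and kept by separate enzymes. Dnmt3a and Dnmt3b place new methyl groups on CpG sites, and Dnmt3l, which has no catalytic activity of its own, stimulates them and is known from germ cells and pluripotent cells. Dnmt1 copies methylation to the new strand after replication, and Uhrf1 brings it to hemimethylated DNA. Uhrf2 is a relative of Uhrf1 that does not replace it in maintenance. AA is a cofactor of the Tet enzymes, which oxidise methylcytosine, and 2i is known in ESCs for lower DNA methylation. The comparisons here asked how the transcripts of this machinery stood after each treatment and after both together.

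Expression was deposited as the counts that RSEM estimated for each gene, called expected counts, whose sum per library ran from 16173322 to 54392719 with a median of 21854761. Level is given as TPM, which is corrected for transcript length and scaled to a common total in each library. Differences between conditions are log2 fold changes from edgeR's quasi-likelihood test on the expected counts, with the standard error (SE), and a gene was called at a Benjamini-Hochberg adjusted p under 0.05 over the 13400 genes tested. Genes in 2i and AA+2i sat slightly lower as a whole on the TPM scale. On the log2(TPM + 1) scale the median difference of all tested genes was -0.13 for 2i and -0.15 for AA+2i against DMSO, and -0.10 and -0.14 against AA, while in the count fit these medians lay between -0.02 and 0.00. The libraries also differed in how counts depended on the GC content of a transcript. For Dnmt3a (55.0% GC) the fitted GC curve ran from -0.74 in DMSO A to 0.44 in AA+2i C on the log2 scale, and for Uhrf2 (46.1% GC) it ran the other way, from 0.52 in DMSO A to -0.36 in AA+2i C. Pou5f1, the gene for Oct4, was at 1865 TPM or more in every library, counting any reads of the retroviral copy, and Nanog was at 2.93, 3.16 and 7.14 TPM with DMSO. Of the 12 fibroblast markers, the summed level was 9.9 to 22.0 TPM with DMSO, 12.7 to 24.2 in AA, 9.5 to 12.1 in 2i and 12.8 to 17.2 in AA+2i, Lum was listed at 0 in every library, and Col1a1 reached at most 2.14 TPM. In RNA from whole cultures, fewer cells of one kind and less RNA per cell cannot be told apart.

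The sequences upstream of 5 starts are shown because they belong to the genes that differed most between conditions and because these genes act on CpG sites, which are in capitals. Each run is the 250 bases before a RefSeq start on the strand of the gene, in GRCm38.p6. The distal Dnmt3a window is followed by a transcript of 8737 bases and the internal one by a transcript of 5424 bases, by match to GENCODE vM1. In that mm9 annotation, where Dnmt3a spans chr12:3806007-3914443, the transcript of 5424 bases starts in intron 6 of another transcript of 9685 bases.
Dnmt3a, distal start, chr12:3806910-3807159, plus strand: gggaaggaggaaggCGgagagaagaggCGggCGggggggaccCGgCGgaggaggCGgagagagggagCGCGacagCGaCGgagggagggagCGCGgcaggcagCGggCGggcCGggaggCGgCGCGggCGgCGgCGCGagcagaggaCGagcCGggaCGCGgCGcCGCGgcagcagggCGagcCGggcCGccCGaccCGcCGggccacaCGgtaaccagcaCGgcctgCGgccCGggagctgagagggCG
Dnmt3a, internal start, chr12:3891494-3891743, plus strand: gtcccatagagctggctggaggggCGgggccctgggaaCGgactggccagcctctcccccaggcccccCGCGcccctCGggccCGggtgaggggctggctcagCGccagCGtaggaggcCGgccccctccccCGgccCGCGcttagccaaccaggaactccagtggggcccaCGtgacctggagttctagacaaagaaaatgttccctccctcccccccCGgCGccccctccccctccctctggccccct
Dnmt3b, chr2:153649199-153649448, plus strand: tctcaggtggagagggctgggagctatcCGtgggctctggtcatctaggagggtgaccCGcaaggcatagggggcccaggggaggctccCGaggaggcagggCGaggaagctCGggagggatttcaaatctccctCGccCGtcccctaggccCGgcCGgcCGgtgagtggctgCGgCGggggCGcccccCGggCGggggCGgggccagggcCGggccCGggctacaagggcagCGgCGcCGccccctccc
Dnmt3l, internal start, chr10:78049592-78049841, plus strand: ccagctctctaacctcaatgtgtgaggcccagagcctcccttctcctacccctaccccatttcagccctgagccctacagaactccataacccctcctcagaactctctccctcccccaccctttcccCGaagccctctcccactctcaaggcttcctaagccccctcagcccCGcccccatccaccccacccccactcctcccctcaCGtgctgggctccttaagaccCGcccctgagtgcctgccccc
Uhrf2, chr19:30030263-30030512, plus strand: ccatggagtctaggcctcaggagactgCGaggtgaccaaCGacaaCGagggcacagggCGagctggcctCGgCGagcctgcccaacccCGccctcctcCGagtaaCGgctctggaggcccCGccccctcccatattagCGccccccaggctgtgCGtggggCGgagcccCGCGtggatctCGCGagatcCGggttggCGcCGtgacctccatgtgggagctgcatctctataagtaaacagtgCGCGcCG
The distal Dnmt3a start held 40 CpGs in 250 bases, more than 98.7% of the 32851 upstream windows of all genes, whose median was 6. The internal Dnmt3a start held 15 CpGs, Dnmt3b 21 and Uhrf2 23. The internal Dnmt3l start held 4, below the median of all windows. This Dnmt3l window is followed by the transcript of 1676 bases, which starts in intron 2 of the transcript of 1822 bases in the mm9 annotation. The RefSeq length listed by RSEM for Dnmt3l was 1669 bases in each of the 7 libraries with a count, and 1742 in the 5 with none. Over the 13 windows of the 6 genes, searched on both strands, the E-box CACGTG was in the 2 internal windows shown (Dnmt3a and Dnmt3l) and in 6.02% of all windows. CCAAT was in 4, those of Dnmt1 (2) and Uhrf1 (2), against 33.8% of all windows. The E2F motifs TTTGGCGC and TTTCCCGC were in none of the 13 and in 0.417% and 0.895% of all windows. A match of letters is a description of the window and not a bound site, and no match says only that these letters are not in it.

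The maintenance genes were the most abundant and Dnmt3l the least. Uhrf1 stood above Dnmt1 in 12 of 12 libraries and Dnmt1 above Uhrf2 in 12 of 12. Uhrf2 was above Dnmt3a in 10 of 12, the exceptions being AA B and AA C. Dnmt3a and Dnmt3b had no fixed order, since Dnmt3a was higher in 8 of 12 libraries and Dnmt3b was higher in all 4 libraries with the letter C. Among all genes of a library, Uhrf1 lay at the 95.1 to 97.9 percentile of TPM, Dnmt1 at the 92.6 to 96.3, Uhrf2 at the 65.8 to 86.7, Dnmt3a at the 59.8 to 71.2, Dnmt3b at the 54.5 to 81.3 and Dnmt3l at the 0.0 to 43.7.

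**Figure D1:**
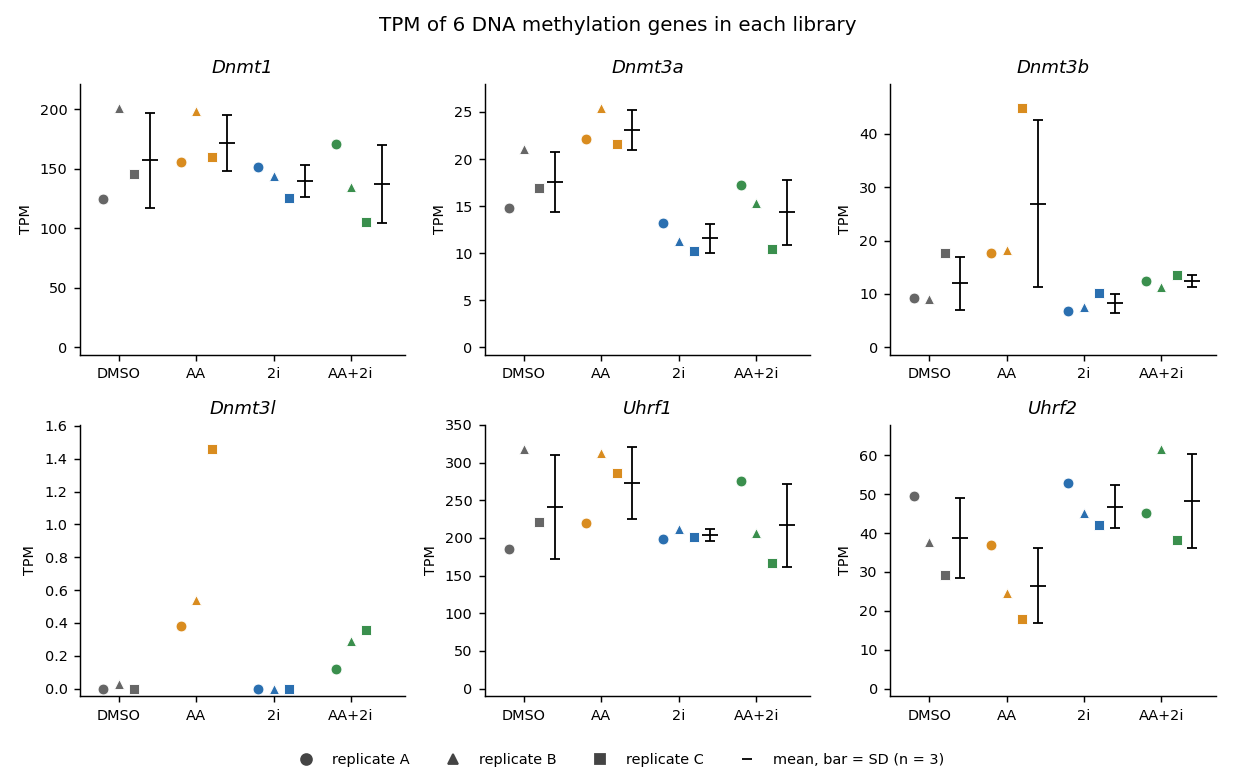
TPM (y axis, linear, from 0) of each of the 6 genes in the 12 libraries, grouped by condition on the x axis. Points are libraries, with the replicate letter as the shape, and the black mark is the mean with its SD (n = 3), left out for Dnmt3l, which had counts of 0. By its mean, Uhrf2 is lowest with AA (26.5 TPM), and Dnmt3a and Dnmt3b are highest there (23.1 and 26.9 TPM), while every treatment overlaps DMSO for Dnmt1 and Uhrf1.

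Dnmt1, the maintenance methyltransferase (mm9 chr9:20711650-20757317, minus strand), was at 124, 201 and 146 TPM with DMSO in replicates A, B and C. It was at 156, 199 and 160 TPM in AA, at 151, 144 and 125 in 2i and at 171, 135 and 106 in AA+2i. The ranges of each treatment overlapped that of DMSO, with means of 157 ± 39.8 TPM (SD, n = 3) for DMSO, 172 ± 23.7 for AA, 140 ± 13.4 for 2i and 137 ± 32.6 for AA+2i. In the fit, Dnmt1 differed from DMSO by 0.18 (SE 0.20, 95% interval -0.27 to 0.63) with AA, 0.04 (SE 0.20, -0.41 to 0.49) with 2i and 0.02 (SE 0.20, -0.43 to 0.47) with AA+2i, none of them called. All 3 intervals lay between -0.43 and 0.63.

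Uhrf1, the adaptor that reads hemimethylated CpGs (mm9 chr17:56442744-56462909, plus strand), was at 185, 318 and 221 TPM with DMSO. With AA it was at 220, 312 and 286 TPM, with 2i at 199, 213 and 201, and with AA+2i at 276, 207 and 167. Every treatment overlapped DMSO, whose own libraries spread more widely (241 ± 69.0 TPM, SD, n = 3) than those of 2i (204 ± 7.44). The fitted differences from DMSO were 0.23 (SE 0.23) for AA, -0.02 (SE 0.23) for 2i and 0.07 (SE 0.23) for AA+2i, and the 95% intervals ran from -0.55 to 0.76 at the widest. Uhrf1 and Dnmt1 kept close to each other, with a ratio of their TPM between 1.32 and 1.78 over the 12 libraries and a Pearson r of log2 CPM of 0.89 (n = 12 libraries, which fall into the 4 conditions and differ in their GC curves), or 0.88 after the GC correction.

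Dnmt3a, the first of the de novo enzymes, was at 14.8, 21.1 and 16.9 TPM with DMSO and at 22.1, 25.5 and 21.6 with AA. It was at 13.2, 11.3 and 10.2 TPM with 2i and lay at 17.2, 15.3 and 10.5 with AA+2i. The lowest AA library was just above the highest DMSO library, and the 2i libraries lay below every DMSO and every AA library. The means were 17.6 ± 3.20 TPM (SD, n = 3) for DMSO, 23.1 ± 2.10 for AA, 11.6 ± 1.54 for 2i and 14.3 ± 3.47 for AA+2i. Against DMSO the fit gave 0.40 (SE 0.17, adjusted p = 0.482) for AA, -0.38 (SE 0.17, adjusted p = 0.317) for 2i and -0.13 (SE 0.17, adjusted p = 0.61) for AA+2i, so no treatment was called on its own. Between the single treatments, 2i was lower than AA (log2 fold change -0.78, 0.584 of the AA level, SE 0.17, adjusted p = 0.0161). This call was lost without AA B, 2i A, 2i B or 2i C, with a highest adjusted p of 0.0751, and the fold change stayed between -0.83 and -0.70 whichever library was left out.

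Dnmt3b, the second de novo enzyme (mm9 chr2:153475186-153513466, plus strand), was at 9.21, 9.08 and 17.6 TPM with DMSO. With AA it was at 17.6, 18.3 and 44.9 TPM. With 2i it was at 6.86, 7.58 and 10.3 TPM, and with AA+2i at 12.4, 11.4 and 13.6. All 3 AA libraries were above all DMSO libraries by the second decimal of the lowest AA value (17.61 against 17.60), and AA C was far above the others. Against DMSO the fit gave 1.195 (SE 0.44, adjusted p = 0.34) for AA, -0.37 (SE 0.44, adjusted p = 0.677) for 2i and 0.25 (SE 0.44, adjusted p = 0.693) for AA+2i. The value for AA ran from 0.57 without AA C to 1.65 without DMSO C. Dnmt3b was highest in letter C in every condition, so leaving out a letter C library also unbalanced the letters. Within each letter AA was above DMSO. With a term for the letter in the model (the replicate block), edgeR gave 1.15 (SE 0.22, adjusted p = 0.0207). Between the single treatments, 2i was lower than AA (-1.57, SE 0.44, adjusted p = 0.0494, 0.337 of the AA level). That call sat at the threshold and held only when AA A or DMSO C was the library left out. Without any one of the other 10 libraries the adjusted p reached up to 0.22, and without AA C the fold change itself shrank to -0.94. With the replicate block edgeR gave -1.45 (SE 0.22, adjusted p = 0.00173) for 2i against AA.

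Dnmt3l, the cofactor of the de novo enzymes (mm9 chr10:77504692-77526367, plus strand), had at most 1 count in any library without AA. The expected counts were 0, 1 and 0 with DMSO and 0, 0 and 0 with 2i. They were 6, 25 and 30 with AA and 2, 6 and 8 with AA+2i. In TPM this was 0.38, 0.54 and 1.46 with AA and 0.12, 0.29 and 0.36 with AA+2i, against at most 0.03 in any library without AA. All 6 libraries with AA held Dnmt3l reads, and the 6 without held 1 count in all. Relative to summed depth, AA held 51.5 times the DMSO rate (61 counts against 1, 95% exact interval 8.89 to 2065), and AA+2i held 20.8 times (16 against 1, 3.23 to 871). AA+2i was 5.04-fold above 2i when 3 counts over the group were put in place of the 0 counts there. That value takes the 16 counts of AA+2i as exact and is not a lower confidence limit. The AA rate was 2.48 times the AA+2i rate (61 against 16 counts, 1.41 to 4.60). These intervals cover counting error only and compare summed libraries, not replicates. Dnmt3l had fewer than 10 counts in all but 2 libraries and did not pass the count filter. When no filter was set, edgeR gave it an adjusted p of 0.0376 for AA against DMSO, 0.00769 for 2i against AA, 0.0641 for AA+2i against DMSO, 0.135 for AA+2i against 2i and 0.361 for AA+2i against AA.

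Uhrf2 (mm9 chr19:30105003-30168212, plus strand) was lowest with AA by its mean, and its differences from AA in 2i and AA+2i had the opposite sign to those of Dnmt3a and Dnmt3b. It was at 49.7, 37.7 and 29.2 TPM with DMSO, at 37.0, 24.6 and 17.9 in AA, at 52.9, 45.3 and 42.2 in 2i and at 45.2, 61.7 and 38.2 in AA+2i. The AA libraries lay below all 2i and all AA+2i libraries, and every treatment overlapped DMSO. The means were 38.8 ± 10.3 TPM (SD, n = 3) for DMSO, 26.5 ± 9.65 for AA, 46.8 ± 5.50 for 2i and 48.3 ± 12.1 for AA+2i. Uhrf2 was higher than with AA by 0.99 (SE 0.27, adjusted p = 0.042) with 2i and by 1.05 (SE 0.27, adjusted p = 0.0445) with AA+2i, about 1.99-fold and 2.07-fold. Against DMSO it differed by -0.55 (SE 0.27, adjusted p = 0.609) with AA, 0.45 (SE 0.27, adjusted p = 0.462) with 2i and 0.50 (SE 0.27, adjusted p = 0.257) with AA+2i.

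The calls of Uhrf2 rested on most of the libraries together. The call of 2i over AA held without DMSO A, DMSO B, DMSO C or AA A and was lost without any one of the other 8, with adjusted p up to 0.151 and fold changes of 0.80 to 1.26. That of AA+2i over AA held without DMSO A, DMSO C or AA A and was lost without any one of the other 9, with adjusted p up to 0.166 and fold changes of 0.85 to 1.32. With the GC correction, which acts on Uhrf2 in the direction opposite to the other members, Uhrf2 was also higher than DMSO, by 0.66 (adjusted p = 0.00789) with 2i and 0.84 (adjusted p = 0.00131) with AA+2i.

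**Figure D2:**
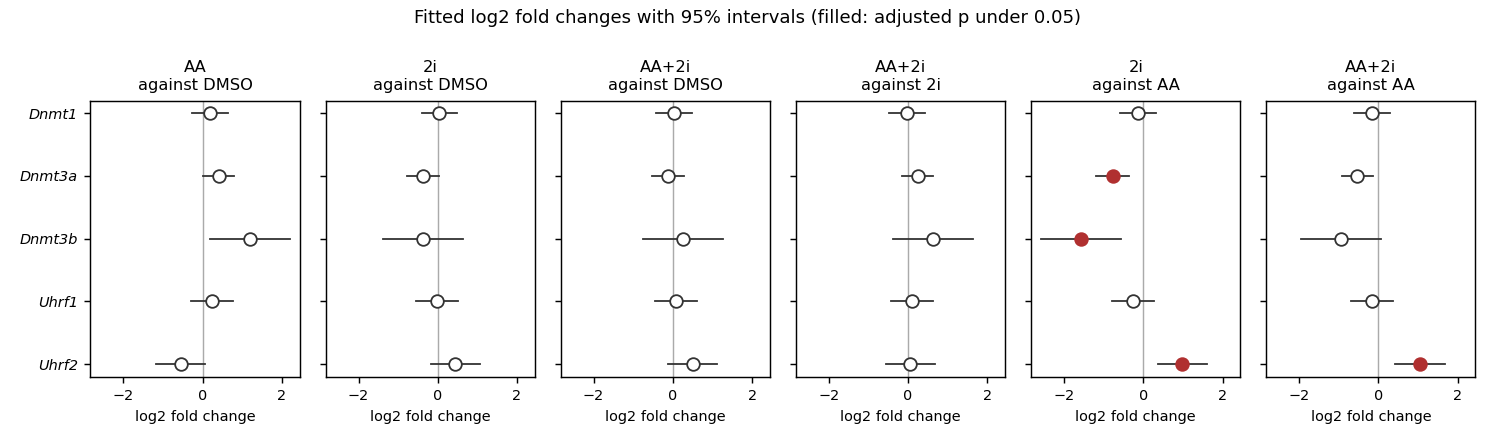
Fitted log2 fold change (x axis) of the 5 tested members (y axis) in 6 comparisons, one panel each. Points are edgeR estimates, lines are 95% intervals, and filled points passed an adjusted p under 0.05. Filled points appear in 2 panels, 2i against AA (Dnmt3a, Dnmt3b, Uhrf2) and AA+2i against AA (Uhrf2), while the intervals of Dnmt1 and Uhrf1 include 0 in every panel.

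By comparison, 2i against AA held the calls of 3 of the 5 tested members, where 9.45% of all tested genes were called. Dnmt3a and Dnmt3b were among the 5.88% of genes that were lower and Uhrf2 among the 3.57% that were higher. In TPM the 3 libraries of 2i did not overlap those of AA for any of the 6 genes. The 5 others were lower in 2i, as were 17.4% of all tested genes, and Uhrf2 was higher, as were 7.66%. Dnmt1 (-0.14, SE 0.20, adjusted p = 0.866) and Uhrf1 (-0.26, SE 0.23, adjusted p = 0.703) did not pass the test in that comparison. In log2 CPM, which is free of the lower TPM scale of 2i, both overlapped. Dnmt1 was at 8.70 in 2i B and 8.58 in AA A, and Uhrf1 at 8.68 in 2i C and 8.45 in AA A.

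AA+2i against AA held 1 call, Uhrf2, where 6.1% of all tested genes were called and 2.81% were called higher. Dnmt3a differed there by -0.53 (SE 0.17, adjusted p = 0.114) and Dnmt3b by -0.94 (SE 0.44, adjusted p = 0.305). With DESeq2, Dnmt3a was called as well, with an adjusted p of 0.0285. With the replicate block, edgeR called Dnmt3a (-0.535, adjusted p = 0.0459) and Dnmt3b (-0.80, adjusted p = 0.0381) lower. With the GC correction and block together it also called Dnmt1 lower (-0.30, adjusted p = 0.0409). Of all 13400 genes, the block called 900 higher and 1092 lower here, and the correction and block together 1665 and 2009, beside 376 and 441 in the main fit. The TPM ranges of Dnmt3a, Dnmt3b and Dnmt3l lay wholly below those of AA, as did those of 16.8% of all tested genes, and that of Uhrf2 lay above, as did 7.66%.

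With the count filter and the model of the 4 conditions, none of the 5 tested members passed edgeR's test with adjustment against DMSO. Dnmt3l without the filter (AA), Uhrf2 with the GC correction (2i and AA+2i) and Dnmt3b with the replicate block (AA) did, as given above. With the correction and block together, edgeR called Dnmt3b higher for AA (adjusted p = 0.00938). In that setting Dnmt3a was lower for 2i (adjusted p = 0.00397) and AA+2i (0.0058), and Uhrf2 was higher for both. The settings with the GC correction or the block also called more of all tested genes than the main fit. For AA, the main fit called 116 higher and 63 lower. The block called 315 and 279, and the correction and block together 744 and 716. With no count filter the calls for AA were fewer, 107 higher and 54 lower of 17171 genes. In the main fit the share of all tested genes called against DMSO was 1.34% for AA, 4.42% for 2i and 8.34% for AA+2i. For AA, Dnmt3a and Dnmt3b were under an unadjusted p of 0.05, as were 9.43% of all genes, and 0 of the 5 were so for 2i (16.1% of all genes) or AA+2i (24.8%). In TPM, Dnmt3a, Dnmt3b and Dnmt3l with AA lay wholly above DMSO, as did 5.36% of all tested genes. Dnmt3a with 2i lay wholly below DMSO, as did 14.7%, and Dnmt3l with AA+2i lay wholly above it, as did 9.6%. DESeq2 called none of the 5 tested members against DMSO. Adding AA to 2i gave no called member (0.91% of all genes), 0 at an unadjusted p under 0.05 by edgeR (9.53% of all genes) and 0 calls with DESeq2, with 0.24 (SE 0.17) for Dnmt3a and 0.63 (SE 0.44) for Dnmt3b. The TPM of Dnmt3b with AA+2i lay above that with 2i in all libraries, and so did Dnmt3l, as did 9.72% of tested genes.

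Whether AA acted differently with and without 2i was tested as an interaction. The estimates were -0.20 (SE 0.28) for Dnmt1, -0.16 (SE 0.25) for Dnmt3a, -0.57 (SE 0.62) for Dnmt3b, -0.14 (SE 0.32) for Uhrf1 and 0.60 (SE 0.38) for Uhrf2. In this fit none had an unadjusted p under 0.05 by edgeR, as 2.31% of all genes had, DESeq2 called 0, and 0.0149% of all tested genes were called. With the GC correction Uhrf2 had an unadjusted edgeR p of 0.00805 (0.60, SE 0.19) and was not called (adjusted p = 0.65). The widest interval, that of Dnmt3b, ran from -1.99 to 0.85, and that of Uhrf2 from -0.27 to 1.48. An interaction of -1 on the log2 scale for Dnmt3b, or of 1 for Uhrf2, could thus not be told from none at this replication.

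Ratios within a library do not depend on its depth or scaling, but they do depend on its GC curve and were not corrected for it. In DMSO A the curve was -0.49 for Uhrf1 and 0.52 for Uhrf2. For Dnmt1 and Dnmt3a it was -0.45 and -0.74 in DMSO A, and 0.26 and 0.44 in AA+2i C. The ratios were chosen after the values had been seen and are given as a description. Dnmt1 stood over Dnmt3a by 8.41, 9.56 and 8.63 times with DMSO, 7.04, 7.81 and 7.42 times in AA, 11.4, 12.7 and 12.3 times in 2i and 9.92, 8.78 and 10.1 times in AA+2i. Dnmt1 thus stood higher relative to Dnmt3a in every 2i library than in any library of the other conditions. In every AA library it stood lower than in any other. The means were 8.87 ± 0.61 (SD, n = 3), 7.42 ± 0.39, 12.1 ± 0.67 and 9.59 ± 0.71. The separation of 2i did not hold for Dnmt3b. Dnmt1 was at 125 and Dnmt3b at 10.3 TPM in 2i C, against 201 and 9.08 TPM in DMSO B. Uhrf1 stood over Uhrf2 by 3.73, 8.45 and 7.55 times with DMSO, 5.95, 12.7 and 15.9 times in AA, 3.76, 4.69 and 4.76 times in 2i and 6.11, 3.36 and 4.37 times in AA+2i. That ratio was more variable, and AA A lay among the values of the other conditions.

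**Figure D3:**
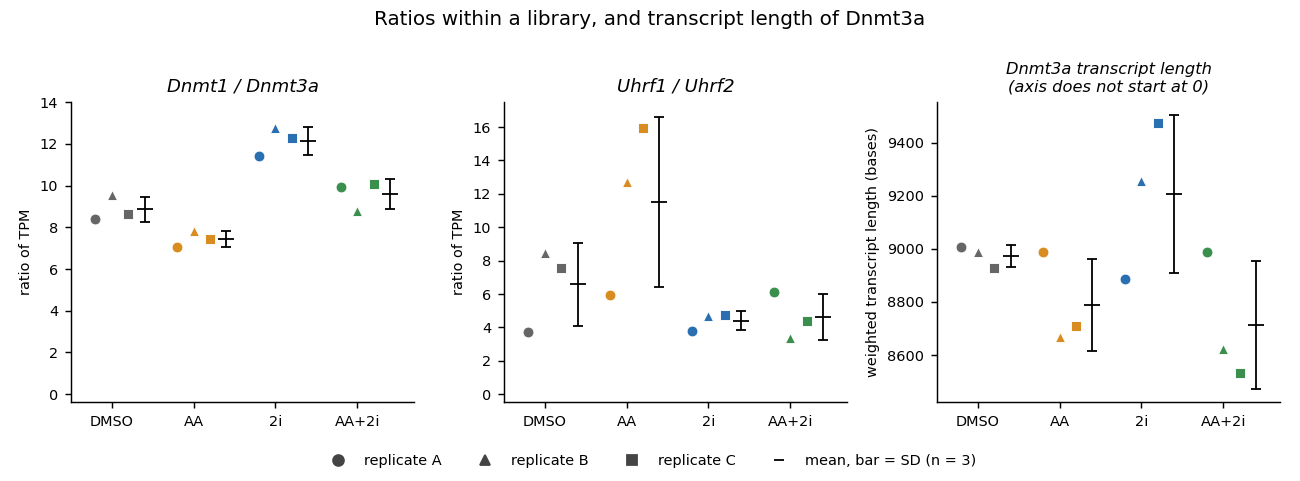
Ratio of TPM of Dnmt1 to Dnmt3a (left) and of Uhrf1 to Uhrf2 (middle), from 0, and the abundance-weighted transcript length of Dnmt3a in bases (right, axis not from 0), by condition. Points are libraries, shapes are replicate letters, and black marks are means with SD (n = 3). The Dnmt1 to Dnmt3a ratio separates AA (7.04 to 7.81) and 2i (11.4 to 12.7) without overlap, and the length in 2i B and 2i C lies above all other libraries.

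RSEM gives each gene a length weighted by the abundance of its transcripts, so for Dnmt3a, with 2 RefSeq transcripts, a shorter length means a larger estimated share of the shorter transcript. The length was 9006, 8986 and 8926 bases with DMSO and 8988, 8667 and 8709 with AA. It was 8887, 9255 and 9474 bases in 2i, against 8986, 8621 and 8534 in AA+2i. The letters B and C were shorter with AA and AA+2i than with DMSO and longer with 2i, while the 4 libraries of letter A lay within 8887 to 9006 bases. As a mean this was 8973 ± 41.6 bases (SD, n = 3) for DMSO, 8788 ± 174.7 for AA, 9205 ± 296.8 for 2i and 8714 ± 239.8 for AA+2i. The files hold no value for each transcript, and no test was made. For Dnmt3b, with 5 RefSeq transcripts, the length moved little, between 4136 and 4190 bases, and Uhrf2 has 1 transcript.

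Among the 21 genes listed as partners of DNA methylation, 0 were called in AA against DMSO (1.34% of all tested genes), 1 in 2i (4.42%) and 4 in AA+2i (8.34%). With AA the list's median was -0.05 against -0.01 for all tested genes. With 2i and AA+2i the list's medians against DMSO were -0.33 and -0.24, beside -0.02 for all tested genes in both. With 2i, 1 was lower than DMSO, Zfp57 (-0.99, SE 0.23, adjusted p = 0.0334), a zinc finger protein that keeps methylation at imprinted regions. Its TPM was 307, 545 and 390 with DMSO and 166, 171 and 188 with 2i, with no overlap. The call was lost without 2i A, 2i B, 2i C, DMSO B, DMSO C, AA B or AA+2i B, with adjusted p up to 0.144. With AA+2i, 2 rose and 2 fell against DMSO. Dppa3, a protein known to restrain Uhrf1 and to guard the maternal genome, rose from 0.16, 0.06 and 0.30 TPM to 9.18, 12.8 and 19.4 (6.75, SE 0.86, adjusted p = 0.00103). Prdm14, which is known in ESCs as a repressor of Dnmt3b and Dnmt3l, rose by 2.65 (SE 0.72, adjusted p = 0.0466) from a very low level, 0.19, 0.03 and 0.05 TPM with DMSO and 0.27, 0.55 and 0.46 with AA+2i. Suv39h1, which methylates histone H3 in heterochromatin, fell by 0.71 (SE 0.15, adjusted p = 0.015), and Zfp57 fell by 0.99 (SE 0.23, adjusted p = 0.0218). The call of Dppa3 held whichever library was left out. That of Prdm14 held only without DMSO A, AA A or 2i C (adjusted p up to 0.151 for the others), that of Suv39h1 was lost without AA+2i A or AA+2i C (up to 0.0693), and that of Zfp57 without AA+2i A, DMSO B or AA+2i B (up to 0.0913).

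Prdm14 was lower with 2i than with AA (-3.30, SE 0.76, adjusted p = 0.0189), at 0.07, 0.06 and 0 TPM against 0.44, 0.41 and 0.78. Its AA and AA+2i libraries overlapped, and it was below 1 TPM throughout. Dppa3 was higher with AA+2i than with AA (3.28, SE 0.64, adjusted p = 0.0121) and than with 2i (5.63, SE 0.78, adjusted p = 0.00729), while Uhrf1 with AA+2i differed from those conditions by -0.16 (SE 0.23) and 0.09 (SE 0.23), with neither called. The Prdm14 call was lost without 2i A, 2i B, 2i C or AA C (adjusted p up to 0.0687), and those of Dppa3 without AA B (0.0677) and without 2i A or 2i B (up to 0.0671). The other partners, which include Hells, Usp7, Trim28 and Setdb1, did not pass in any of the 6 comparisons.

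**Figure D4:**
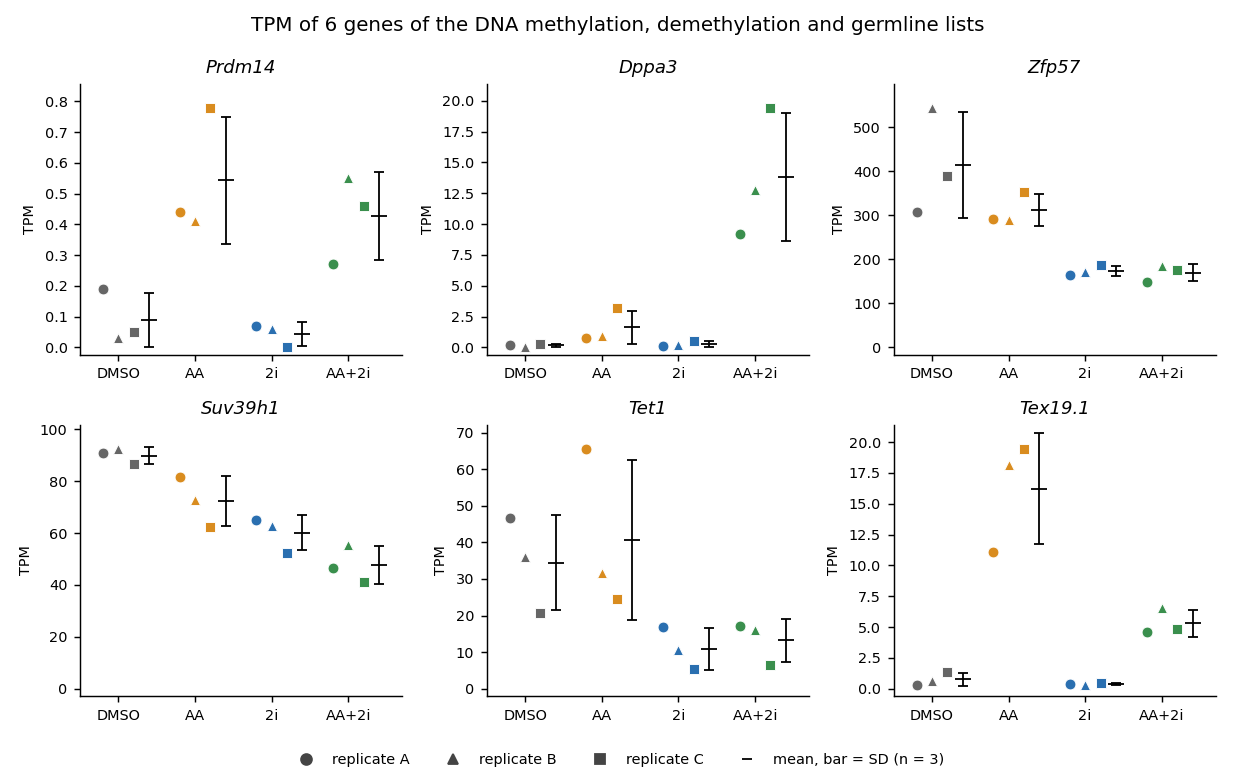
TPM (y axis, linear, from 0, a different scale in each panel) of 3 partners that moved by over 0.9 on the log2 scale (Prdm14, Dppa3, Zfp57), of Suv39h1, of the demethylase Tet1 and of the germline gene Tex19.1 in the 12 libraries by condition. Points are libraries, shapes are replicate letters, and black marks are means with SD (n = 3). Dppa3 is above 9 TPM in AA+2i only, Tex19.1 is above 4 TPM in all 6 libraries with AA and at most 1.33 in the 6 without, and Zfp57 is lower in all 6 libraries with 2i than in any without it.

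On the removal side, Tet1, which oxidises methylcytosine, was called between the single treatments as were Dnmt3a and Dnmt3b. It was at 46.6, 36.0 and 20.6 TPM with DMSO, 65.6, 31.7 and 24.5 in AA, 16.8, 10.6 and 5.30 in 2i and 17.1, 16.0 and 6.44 in AA+2i. Tet1 was lower with 2i than with AA (-1.745, SE 0.49, adjusted p = 0.0453), and all 6 libraries with 2i lay below all 6 without it. The call held only without DMSO A, DMSO C, 2i A, AA C or AA+2i C, with adjusted p up to 0.154 for the others. Tet1 was the 1 of 11 tested demethylation genes to pass in any of the 6 comparisons, and Tet2, Tet3 and Tdg were among the 10 that did not. None of the 8 methyl-CpG readers, which include Mbd1, Mbd2 and Mbd3, and none of the 13 tested genes of the methyl donor cycle passed by edgeR in any of the comparisons.

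Dnmt1 and Uhrf1 are expressed with DNA replication, so 32 genes of S phase were set beside them. Their summed level was 4466 to 5589 TPM with DMSO, 4538 to 5709 in AA, 3728 to 4585 in 2i and 3127 to 3959 in AA+2i. No gene of this list was called against DMSO in any treatment. Its median log2 fold change against DMSO was 0.04 in AA, -0.10 in 2i and -0.27 in AA+2i, beside -0.01, -0.02 and -0.02 for all tested genes. Ccne1, which encodes cyclin E1, was lower than with AA both with 2i (-0.66, SE 0.19, adjusted p = 0.0478) and with AA+2i (-0.78, SE 0.19, adjusted p = 0.0316), with 89.6, 87.6 and 98.3 TPM in AA, 56.3, 47.9 and 51.8 in 2i and 49.2, 48.5 and 44.2 in AA+2i. Both Ccne1 calls depended on most libraries. The call for 2i held only without a DMSO library, and that for AA+2i only without a DMSO library or AA A, with adjusted p up to 0.197 and 0.124 otherwise. The part of cell cycle position in the levels of Dnmt1 and Uhrf1 was not tested.

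Germline genes that DNA methylation is known to silence were also set beside the members. Of 16 such genes, 3 passed the count filter, and 1 of them, Tex19.1, a gene of germ cells and placenta that is silenced by promoter methylation in somatic cells, rose with AA. It was at 0.28, 0.65 and 1.33 TPM with DMSO, 11.1, 18.1 and 19.5 in AA, 0.39, 0.33 and 0.48 in 2i and 4.56, 6.54 and 4.80 in AA+2i. The changes were 4.47 (SE 0.50, adjusted p = 0.00238) for AA against DMSO, 3.02 (SE 0.47, adjusted p = 0.00326) for AA+2i against DMSO, 3.75 (SE 0.50, adjusted p = 0.0064) for AA+2i against 2i and -5.19 (SE 0.52, adjusted p = 0.000195) for 2i against AA. The calls held whichever library was left out, except AA+2i against 2i without 2i B (adjusted p = 0.0568). Its order of conditions, AA, then AA+2i, then DMSO and 2i, was that of the Dnmt3l reads. By mean TPM the pluripotency markers Dppa5a (1438, 674, 53.2 and 23.4) and Zfp42 (15.8, 6.71, 2.37 and 1.08) had that order too. A link between these genes was not tested. The 2 other tested germline genes did not pass in any of the 6 comparisons.

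Of 20 genes whose imprinted expression depends on methylation, 15 were tested. With AA, 1 was lower than DMSO, and with 2i, 1 was higher, in both cases Plagl1, a zinc finger growth regulator. It was at 2.60, 2.01 and 2.49 TPM with DMSO, 0.53, 0.30 and 0.68 with AA (-2.22, SE 0.38, adjusted p = 0.0175), 14.8, 9.51 and 15.1 with 2i (2.65, SE 0.38, adjusted p = 0.00299) and 3.35, 3.91 and 5.39 with AA+2i. Between 2i and AA, Plagl1 differed by 4.88 (SE 0.42, adjusted p = 0.00011), and between AA+2i and AA by 3.28 (SE 0.40, adjusted p = 0.00095). Igf2, a fetal growth factor, was higher with AA+2i than with DMSO by 2.57 (SE 0.68, adjusted p = 0.0396), and Snrpn, a paternally expressed splicing protein gene, was lower (-0.80, SE 0.17, adjusted p = 0.0155) but not called after the GC correction (-0.45, adjusted p = 0.224). Snrpn with AA+2i was lower than with AA as well (-0.80, SE 0.17, adjusted p = 0.0186), which also was not called after the GC correction (adjusted p = 0.111). Against AA, Igf2 was higher with AA+2i (3.95, SE 0.72, adjusted p = 0.0084) and with 2i (2.62, SE 0.68, adjusted p = 0.0328). Peg10, a retrotransposon-derived gene, was higher with AA+2i than with AA (1.29, SE 0.31, adjusted p = 0.0296), and Peg3, a zinc finger protein, was lower with 2i than with AA (-1.10, SE 0.30, adjusted p = 0.042). No other of the 15 passed in any of the 6 comparisons. The listed imprinted genes moved in both directions, and methylation itself was not measured in these libraries.

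The calls of Plagl1 for 2i held whichever library was left out, and that for AA was lost without DMSO A, DMSO C or AA B (adjusted p up to 0.0838). The other calls of imprinted genes were less stable. For Igf2, AA+2i against DMSO was lost without DMSO A, DMSO B, DMSO C, AA B, AA+2i A or AA+2i C (up to 0.181), AA+2i against AA without AA B (0.0503), and 2i against AA without AA A, AA B or 2i C (up to 0.139). For Snrpn, both calls were lost without any AA+2i library, and the one against AA also without AA B or AA C (up to 0.0838). Peg10 was lost without AA B, AA C or any AA+2i library (up to 0.122), and Peg3 held only without DMSO A, DMSO C, AA C or AA+2i C (up to 0.161 for the others).

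Pluripotency markers also differed between conditions. Of the 12, 5 were higher with AA than DMSO, where 0.866% of all tested genes were, and 5 were lower with 2i than AA, where 5.88% were, among them Dppa5a (-5.78, SE 0.41), Zfp42 (-3.70, SE 0.39) and Tdgf1 (-3.50, SE 0.29), the direction of Dnmt3a, Dnmt3b and Dnmt3l in the latter comparison. With AA+2i, 6 of the 12 were higher than DMSO, where 3.93% of all tested genes were, with a median of 1.41, while Dnmt3a was at -0.13 and Dnmt3b at 0.25. Between AA+2i and AA the median of the markers was 0.04, while Dnmt3a was at -0.53 and Dnmt3b at -0.94. The markers went both ways there, with 1 called higher, Esrrb (2.045, SE 0.48), and 2 called lower. The lower ones were Tdgf1 (-1.30, SE 0.26) and Lin28a (-2.78, SE 0.615), where 6.1% of all tested genes were called in either direction. Dnmt3l with AA+2i also lay wholly below AA in TPM. Of the 9 tested fibroblast markers, 8 had a positive difference between 2i and AA, with a median of 0.68 beside 0.00 for all tested genes. Thy1 was the exception and was lower (-3.31, SE 0.54, adjusted p = 0.00265) with 2i than with AA, and Postn was higher (adjusted p = 0.0438). Postn did not exceed 0.33 TPM in any library, and Thy1 was at 6.69, 15.1 and 16.0 TPM with AA and 1.23, 1.68 and 0.54 with 2i. The Postn call held only without DMSO C, 2i C or AA+2i A (adjusted p up to 0.123 for the others). The part of such shifts in cell state in the levels of the members was not tested.

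The genes most like each member over the 12 libraries, by Pearson r of log2 CPM, are given as a description. For Dnmt1 they included Hcfc1 (0.94) and Ehmt1 (0.94), the last a histone H3 methyltransferase and one of the listed partners. For Uhrf1 they were Ssh1 (0.95), Fgf11 (0.94) and Tnrc6c (0.93). Dnmt3a was most like Klk1b27 (0.97), a kallikrein gene of a family with near-identical copies whose counts are uncertain, and Ift140 (0.96) and Ift122 (0.96), both of intraflagellar transport. Dnmt3b was most like Rbpms (0.95), Ccdc96 (0.92) and Hsd17b14 (0.92), and the genes most like Uhrf2 included Dnajb4 (0.95) and Mgst1 (0.95). These neighbours depended on the GC curves of the libraries, since after the GC correction 0 of the 3 remained for Dnmt1, Dnmt3a and Uhrf2 and 1 of 3 for Dnmt3b and Uhrf1.

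Among the members themselves, Uhrf2 had a negative r to every other tested member over the 12 libraries. It was -0.78 to Dnmt3a, -0.73 to Dnmt3b, -0.62 to Uhrf1 and -0.51 to Dnmt1. After the GC correction these values were -0.73, -0.66, -0.67 and -0.55. Dnmt3a and Dnmt3b followed each other less closely (0.55, and 0.33 after the correction), and Dnmt3a was closer to Dnmt1 after the correction (0.82) than before it (0.61). The points share conditions, so these values include the differences between conditions described above.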

How the data were processed

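RNA of the 12 libraries was sequenced as single-end reads. Per the study's methods, the authors clipped, trimmed and quality-filtered reads before alignment with Bowtie2 to RefSeq genes of mm9 and quantification by RSEM (version 1.2.4 per the submitters' processing notes) with a forward probability of 0.5, so strand was not used. The deposited values are expected counts, not normalized, and TPM and FPKM, scaled within each library. The FPKM that the authors deposited served only to recompute 1 malformed TPM cell, of 0610011F06Rik in AA C, as 40.6. The weighted length is the length RSEM listed for each gene in each library.

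Here edgeR 4.0.16 (R 4.3.3) was run on the rounded values with its quasi-likelihood test, RLE factors and 1 mean per condition, over the 13400 genes, 5 members among them, that reached 10 counts in 3 or more libraries. The SE is the log2 fold change over the square root of F, and 95% intervals use t with 8 residual degrees of freedom. Alternatives were TMM factors, DESeq2 1.42.0, limma 3.58.1 on log2(TPM + 1), other filters, a replicate block, a loess correction for GC content (span 0.4, 99.25% of tested genes), only the groups compared, and leaving out each letter or library. EB-Seq, which the study used, was not run. log2 CPM used a prior count of 2. The main edgeR test was tried on simulated counts with known changes for AA against DMSO. Gene positions are from GENCODE vM1 on NCBIM37 (mm9) and upstream windows from RefSeq on GRCm38.p6. The named genes were the 6 members, the 3 genes most like each tested member and the called genes of each list, at most 5 by size. Some genes that met this rule are not reported here. The members and lists were chosen with earlier results of these data known.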

Additional observations from a re-analysis of the deposited data

How the results depend on the processing

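Against AA, 2i kept 3 called members with TMM factors, DESeq2, the GC correction, the replicate block, and the correction and block together. The count was 1 when only the groups compared were fitted, and 0 to 3 when a letter or a library was left out, 0 of them without letter B, letter C, any 2i library or AA B and 1 without AA C, AA+2i A, AA+2i B or AA+2i C. With no count filter the 3 calls were Dnmt3a, Uhrf2 and Dnmt3l, since Dnmt3b was at an adjusted p of 0.05, and limma and the filter on every library each called 2. Of all 13400 genes, 2i against AA called 478 higher and 788 lower in the main fit. It called 945 and 1319 with the replicate block, and 1794 and 2189 with the correction and block together. AA+2i against AA had 1 member in the main analysis, 2 with DESeq2, 0 with limma, 0 with no count filter, 0 with only the groups compared, 3 with the replicate block, 4 with the correction and block together, and 0 to 1 when a letter or library was left out. AA against DMSO had 0, but 1 with no count filter (Dnmt3l), 1 with the replicate block (Dnmt3b, 1.15, adjusted p = 0.0207) and 1 with the correction and block together. 2i against DMSO and AA+2i against DMSO had 0, but 1 each with the GC correction (Uhrf2) and 2 each with the correction and block together (Dnmt3a and Uhrf2). Of all 13400 genes, the GC correction called 575 higher and 972 lower for 2i, and 1164 and 1406 for AA+2i. The correction and block together called 1391 and 1905 for 2i, and 2281 and 2565 for AA+2i. AA+2i against 2i and the interaction had 0 in every setting run.

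The main fit did not take the replicate letters as pairs, although libraries of the same letter mostly varied together. A replicate block raised the genes called for AA+2i against DMSO from 526 higher and 591 lower to 2051 and 2178. Over 18 pairs of same-letter libraries from 2 conditions, the deviations from the condition means correlated between -0.588 and 0.894 (mean 0.401), and 15 of 18 were over 0.1. Of 835 alternatives for single members, 737 kept direction and side of the threshold, 48 lost a call, 14 gained one and 36 changed the sign of a difference that was not called. No called difference changed sign. The smaller models with fewer libraries have fewer residual degrees of freedom by construction. Depth limits Dnmt3l, at 0 to 30 counts, most.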
